A study of Rattus norvegicus with 6 samples.

Results

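The 10 genes described here encode acetyl-CoA synthetases, the enzyme that makes acetyl-CoA from citrate, and enzymes that turn acetyl-CoA into fatty acids. They are the synthetases Acss1, Acss2 and Acss3, ATP citrate lyase (Acly), the acetyl-CoA carboxylases Acaca and Acacb, and fatty acid synthase (Fasn). The stearoyl-CoA desaturases Scd and Scd2 and the elongase Elovl6 complete the set. The members were taken by symbol from a table of 40456 genes, and all 10 were found in it. Acss2 was chosen by its measured group difference in these same 6 libraries, which was among the largest, and the other enzymes were added for their place in the pathway. Group differences of the members are therefore given as a description, without a test.

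Messenger RNA was sequenced from differentiated H9c2 (2-1) cells, a cardiomyoblast line from rat heart, labelled as wild type in genotype. Both groups were kept for 5 days in medium with 1% serum and 1 µM retinoic acid and received 25 nM of a locked nucleic acid gapmer for 24 h before harvest. Such gapmers are short antisense strands that recruit RNase H to the RNA they pair with. The 3 control libraries received a negative control gapmer (GCTCCCTTCAATCCAA) and the 3 knockdown libraries one that pairs with Tug1, a long non-coding RNA (ATTCAGTAGACAGCTA). All cells belong to a single line and a single gapmer stands for the knockdown, so effects of the oligonucleotide sequence and of Tug1 loss cannot be told apart. The labels do not say whether the replicates came from separate cultures, and p-values measure only the spread between these libraries.

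As background, cytosolic acetyl-CoA comes mainly from citrate, which Acly cleaves, and from acetate, which Acss2 activates in the cytosol and nucleus while Acss1 and Acss3 act in mitochondria. Acetyl-CoA carboxylase makes malonyl-CoA from it, Fasn builds palmitate, and Elovl6 and the desaturases convert palmitate into longer and monounsaturated fatty acids. Most of these genes are known targets of the sterol regulatory element binding proteins (SREBPs). Heart and muscle use this pathway less than liver and fat, and there malonyl-CoA also restrains fatty acid oxidation.

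Promoter sequences are shown for 4 members, because Acss2, Acly and Scd lay well apart between the groups and Scd2, the close relative of Scd, did not. They come from RefSeq (build GRCr8), run 5′ to 3′ on the strand of the gene, and span 250 bases before to 50 bases after an annotated start. Of the 10 members, 5 were matched in that table. Acss2 is at chr3:164464453-164464752 on the plus strand, Acly at chr10:85963582-85963881 on the minus strand, Scd at chr1:253231682-253231981 on the minus strand and Scd2 at chr1:253118127-253118426 on the plus strand. Capitals mark exact matches on either strand to a GC box with the letters GGGCGG, the 5 letters of the CCAAT box, an E-box with the letters CACGTG, a sterol regulatory element (TCACNCCAC) or the core of an antioxidant response element (TGACNNNGC).
Acss2: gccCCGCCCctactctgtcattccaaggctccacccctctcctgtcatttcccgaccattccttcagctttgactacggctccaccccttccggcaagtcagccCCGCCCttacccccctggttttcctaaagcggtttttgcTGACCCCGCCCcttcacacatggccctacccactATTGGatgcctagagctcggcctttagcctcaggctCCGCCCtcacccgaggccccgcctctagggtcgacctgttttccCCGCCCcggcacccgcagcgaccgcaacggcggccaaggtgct
Acly: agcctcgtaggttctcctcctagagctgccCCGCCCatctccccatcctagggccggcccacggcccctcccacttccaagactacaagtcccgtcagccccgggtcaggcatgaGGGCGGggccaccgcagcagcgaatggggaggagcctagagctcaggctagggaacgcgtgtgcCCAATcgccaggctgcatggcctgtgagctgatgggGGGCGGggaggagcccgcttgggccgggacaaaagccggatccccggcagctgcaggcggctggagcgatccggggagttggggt
Scd: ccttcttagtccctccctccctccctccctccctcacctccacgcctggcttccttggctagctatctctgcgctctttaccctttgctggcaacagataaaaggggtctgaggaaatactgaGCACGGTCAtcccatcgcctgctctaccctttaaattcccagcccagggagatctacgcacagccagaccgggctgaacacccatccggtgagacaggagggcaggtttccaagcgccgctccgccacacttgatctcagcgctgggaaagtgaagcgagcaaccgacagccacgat
Scd2: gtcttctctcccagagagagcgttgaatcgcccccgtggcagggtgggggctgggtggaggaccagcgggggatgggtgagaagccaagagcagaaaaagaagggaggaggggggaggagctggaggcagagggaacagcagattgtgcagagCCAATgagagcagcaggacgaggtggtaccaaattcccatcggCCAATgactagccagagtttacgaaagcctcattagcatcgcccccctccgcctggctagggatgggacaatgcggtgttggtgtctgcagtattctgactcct

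The Acss2 promoter held 5 GC boxes, and 2.34% of the 33469 RefSeq promoters of this length held at least that many. It also held 1 CCAAT box on the opposite strand, beginning 73 bases before the start, and 1 antioxidant response core that overlaps a GC box. The Acly promoter held 3 GC boxes and 1 CCAAT box. In the Scd promoter the search found 1 antioxidant response core, and in the Scd2 promoter 2 CCAAT boxes. Among all RefSeq promoters 33.1% held a GC box, 37.5% a CCAAT box and 12.1% an antioxidant response core. The sterol regulatory element (1.12% of all promoters) and the E-box (6.42%) were not found as exact letters in these 4 windows. A match is a string of letters and not a measured binding site.

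The libraries held 12978548 to 13544337 counts each, and levels are given as CPM, counts scaled to library size with TMM factors. Tug1, the targeted RNA, was at 11.9 ± 0.609 CPM in knockdown libraries, against 54.0 ± 1.77 in controls (SD, n = 3), with no overlap. The labels call the cells cardiomyocytes. Of 15 markers of that type 7 were tested, among them Tnnt2 (means of 348.7 CPM in control and 410.3 CPM in knockdown libraries), Casq2 (360.2 and 301.1), Pln (23.4 and 14.6), Gata4 (12.7 and 10.6) and Actc1 (9.22 and 18.1). The others tested, at low levels, were Actn2 (1.36 and 1.65) and Myl2 (0.54 and 1.28). Myh6, Myh7, Nppb, Nkx2-5 and Ryr2 had at most 3 counts in every library, and Tnni3, Myl7 and Nppa at most 4. Of 14216 tested genes, 61.7% had a Benjamini-Hochberg adjusted p under 0.05 by the quasi-likelihood test of edgeR, 30.8% higher and 30.9% lower in the knockdown libraries. Changes of single genes were thus the rule in this comparison. Of the 7 tested cardiomyocyte markers, 3 were among the higher genes and 2 among the lower.

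Of the 10 members, 8 passed the filter on low counts, and each of these had at least 34 counts in every library, so none entered through only the higher group. In the fit over all genes 5 of the 8 were called higher and 0 lower, beside the background of 61.7%, and nothing is read from that count because the same libraries gave the members. The libraries of the groups did not overlap for 7 of the 8, beside 65.6% of all tested genes. The members together took 0.515% to 0.536% of all counts in control libraries and 0.635% to 0.689% in knockdown libraries. In bulk RNA, more cells with an active pathway and more RNA per cell cannot be told apart.

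Among the enzymes that supply acetyl-CoA, Acss2 differed most. Its level was 65.8, 68.9 and 72.2 CPM in control replicates 1 to 3 and 310.3, 319.0 and 269.7 CPM in knockdown replicates 1 to 3. The groups were far apart, since the lowest knockdown library was 3.74 times the highest control library. The log2 fold change of Acss2 was 2.12 (SE 0.0612), a level 4.35 times that of controls. Of 9443 genes with a mean of 10 CPM or more, 5, Acss2 among them, had a log2 fold change that high, and this is the value for which it was chosen.

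Both mitochondrial relatives of Acss2 were close to absent. Acss1, which activates acetate in the mitochondrial matrix, had 1 count in knockdown replicate 2 and none in the other libraries. Acss3, a mitochondrial synthetase best known for propionate, had 1 or 2 counts per control library, and knockdown replicates 1 to 3 had 6, 3 and 6. A group of libraries at or under 3 counts was taken as not detected, so no fold change is given for either gene. Nearly all counts of the acetyl-CoA synthetase family in these cells were those of Acss2.

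Acly, which cleaves exported citrate into acetyl-CoA and oxaloacetate, had the next largest difference. Its level was 399.3, 401.4 and 431.0 CPM in control replicates 1 to 3 and 764.7, 797.5 and 746.5 CPM in knockdown replicates 1 to 3. The log2 fold change was 0.91 (SE 0.0448), and every knockdown library was at least 1.73 times every control library. Both cytosolic sources of acetyl-CoA among the members thus had higher transcript levels in the knockdown libraries, the acetate enzyme by the larger factor.

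**Figure D1:**
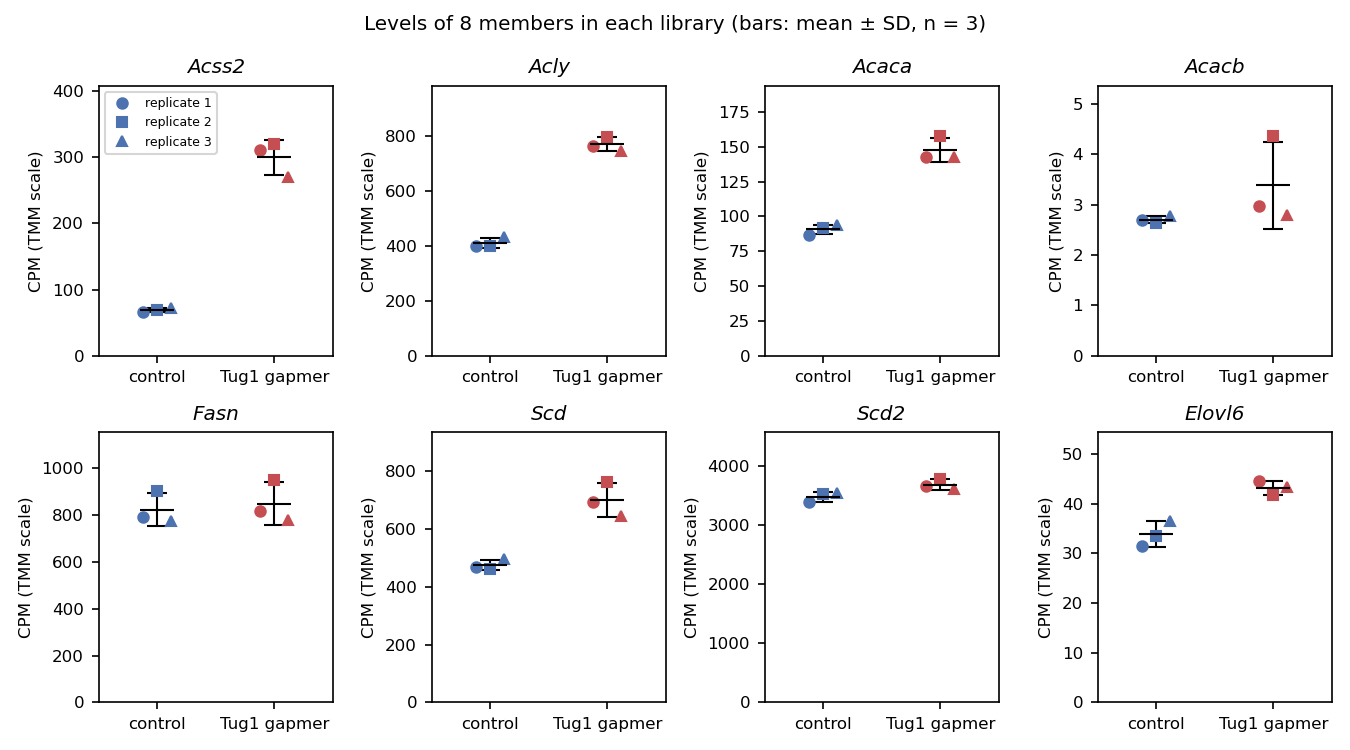
Level of each of the 8 tested members in every library, in CPM on the TMM scale from 0, with control libraries in blue and Tug1 gapmer libraries in red, one marker shape per replicate number and bars for the mean ± SD (n = 3). Acss2, Acly, Acaca and Scd are separated by wide gaps, while the Fasn values of both groups cover the same range.

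The next step is that of the carboxylases. Acaca, the cytosolic isoform whose malonyl-CoA feeds synthesis, had 87.1, 91.9 and 93.6 CPM in control replicates 1 to 3 and 143.0, 157.8 and 142.4 CPM in knockdown replicates 1 to 3. All knockdown libraries lay above all control libraries, with a log2 fold change of 0.70 (SE 0.055). Acaca has one of the longer genes among the members, and with an offset for genomic length its log2 fold change was 0.35. Acacb, the isoform at the mitochondrial outer membrane, was low, at 34 to 36 counts per control library, against 41, 59 and 37 in the knockdown replicates in order. Its log2 fold change of 0.32 had an SE of 0.222, and the gap between the groups was a single count, 36 against 37. Without knockdown replicate 2 that value was 0.10. Whether the carboxylase genes differed from each other in their response was not tested.

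Fasn, the enzyme that assembles palmitate from malonyl-CoA, did not follow Acly and Acaca. Its level was 790.5, 904.6 and 773.2 CPM in control replicates 1 to 3 and 818.2, 950.6 and 777.6 CPM in knockdown replicates 1 to 3. The groups overlapped, and replicate 2 was the highest library in both. The log2 fold change of Fasn was 0.04 (SE 0.0618), and it was -0.04 without knockdown replicate 2. Of all tested genes, 92.5% had a larger absolute log2 fold change than Fasn.

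Scd and Scd2 encode close relatives that introduce the double bond of oleate and palmitoleate, and they lay apart. Scd was at 469.3, 462.7 and 495.9 CPM in control replicates 1 to 3 and at 693.8, 762.7 and 644.2 CPM in knockdown replicates 1 to 3. Its log2 fold change was 0.56 (SE 0.0519), with no overlap between the groups. Scd2 was at 3381, 3518 and 3533 CPM in controls and at 3659, 3780 and 3599 CPM in knockdown replicates 1 to 3. The Scd2 groups did not overlap either, but by a narrow margin, with a log2 fold change of 0.08 (SE 0.04). It was 0.13 with library totals in place of TMM, a scaling that moved the median of all tested genes from 0.00 to 0.06. How reads shared between these related genes were counted is not given in the sources used here, so their separate levels are uncertain.

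Elovl6, which elongates palmitate to stearate, had 31.4, 33.5 and 36.6 CPM in control replicates 1 to 3 and 44.6, 41.8 and 43.3 CPM in knockdown replicates 1 to 3. Every knockdown library was above every control library, and the log2 fold change was 0.35 (SE 0.0711). With the length offset it was 0.15. The members thus did not differ by one common factor: the differences ran from near none at Fasn and Scd2 to more than 4-fold at Acss2.

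**Figure D2:**
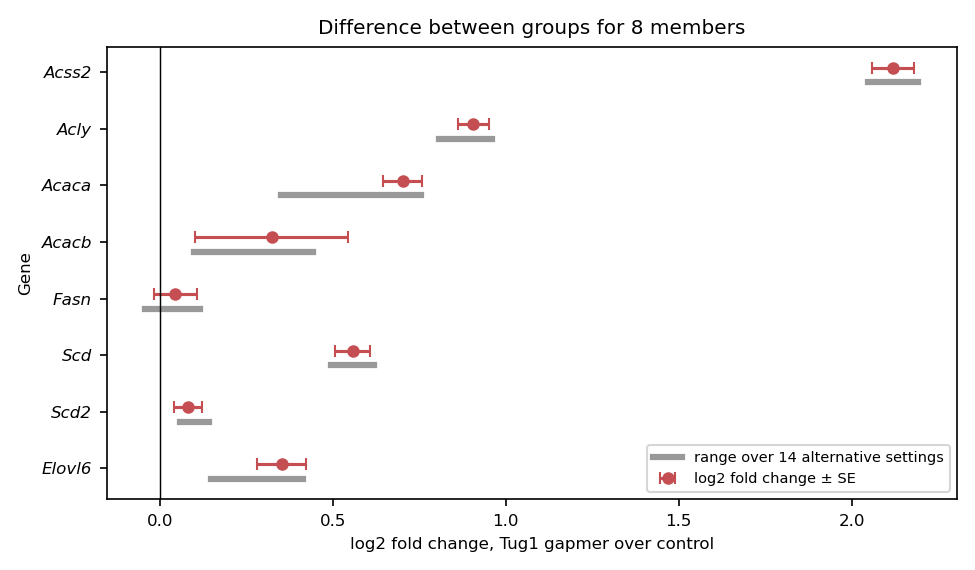
Log2 fold change of Tug1 gapmer over control for the 8 tested members (red points, bars ± SE from edgeR), with grey bars for the range over 14 alternative settings. Acss2 lies from 2.05 to 2.19 under all of them, Acaca and Elovl6 reach down to 0.35 and 0.15 with the length offset, and Fasn spans 0.

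Within the groups the same libraries tended to be at the extremes. Knockdown replicate 3 was the lowest knockdown library for 7 of the 8 tested members and knockdown replicate 2 the highest for 7, with Elovl6 the exception in both cases. Among controls, replicate 3 was the highest for 7 of the 8, with Fasn the exception. Over all tested genes knockdown replicate 3 was the lowest of its group in 4720 of 14216. The matching counts for the highest library were not made, so those of the members have no background. Tug1 itself had 164, 152 and 165 counts in knockdown replicates 1 to 3.

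Genes next to Acss2 on the chromosome were compared, since the use of strand in counting is not given in the sources used here and reads of adjoining genes could be mixed. Of the annotated genes in the RefSeq order (GRCr8), only a small nucleolar RNA lies inside the Acss2 span, with at most 5 counts in a library. Acss2 is on the plus strand, and the genes that adjoin it on each side are on the minus strand. Ggt7, a gamma-glutamyltransferase relative, lies 65 bases before Acss2, so the promoter window shown for Acss2 may reach into Ggt7. Ggt7 went from 22.3 ± 0.859 to 16.3 ± 1.95 CPM (SD, n = 3; log2 fold change -0.45, SE 0.0951, edgeR adjusted p 0.000268). Gss, the glutathione synthetase gene 398 bases after Acss2, rose by 0.30 on the log2 scale (SE 0.0559, edgeR adjusted p 7.75e-05). Neither adjoining gene had a difference near that of Acss2. One gene further on, the muscle myosin gene Myh7b rose from 2.10 ± 0.792 to 7.36 ± 0.824 CPM (SD, n = 3; log2 fold change 1.80, SE 0.211, edgeR adjusted p 1.22e-07). Ncoa6, a coactivator gene on the Ggt7 side, rose by 0.29, while Trpc4ap beyond Myh7b was at 0.10 (SE 0.0518, edgeR adjusted p 0.0908) and did not pass.

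**Figure D3:**
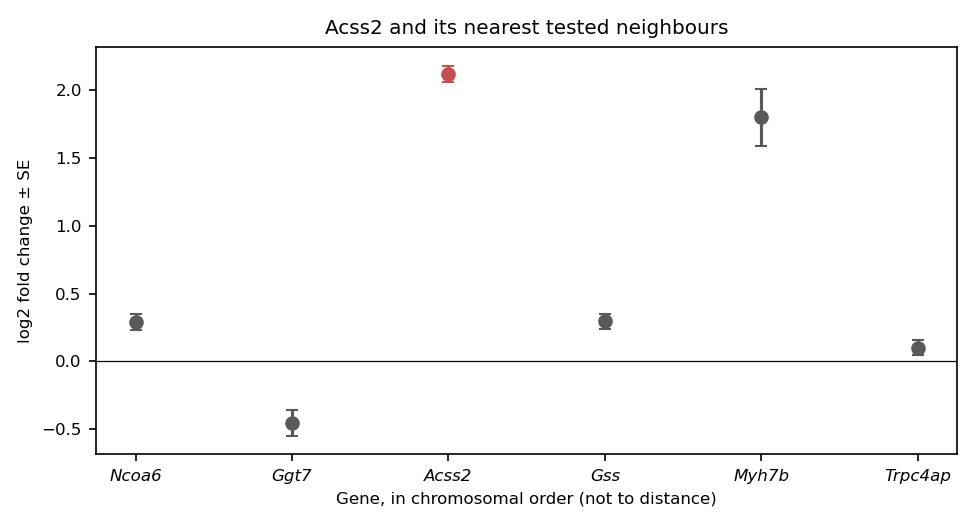
Log2 fold change (points, bars ± SE from edgeR) of Acss2 in red and of its nearest tested neighbours in grey, in chromosomal order with equal spacing. Acss2 at 2.12 and Myh7b at 1.80 stand high, with Gss at 0.30 between them and Ggt7 at -0.45 on the other side.

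The genes with the profile most like Acss2 were sought by the root mean square distance between log2 CPM values over the 6 libraries, each gene centred on its own mean, among 9072 other named genes with a mean of 10 CPM or more. The nearest were Akr1b10 (distance 0.16 in log2 units), Lpin1 (0.17), Col11a2 (0.17), Csdc2 (0.19) and Ahnak2 (0.20). Akr1b10 encodes an aldo-keto reductase, Lpin1 a phosphatidate phosphatase of triglyceride synthesis, and Col11a2 a fibrillar collagen chain. Akr1b10 went from 8.17 ± 0.502 to 29.7 ± 2.61 CPM and Ahnak2 from 57.3 ± 2.31 to 193.5 ± 7.92 CPM (SD, n = 3). With 2 groups of 3 libraries this likeness mostly reflects the size of the group difference.

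**Figure D4:**
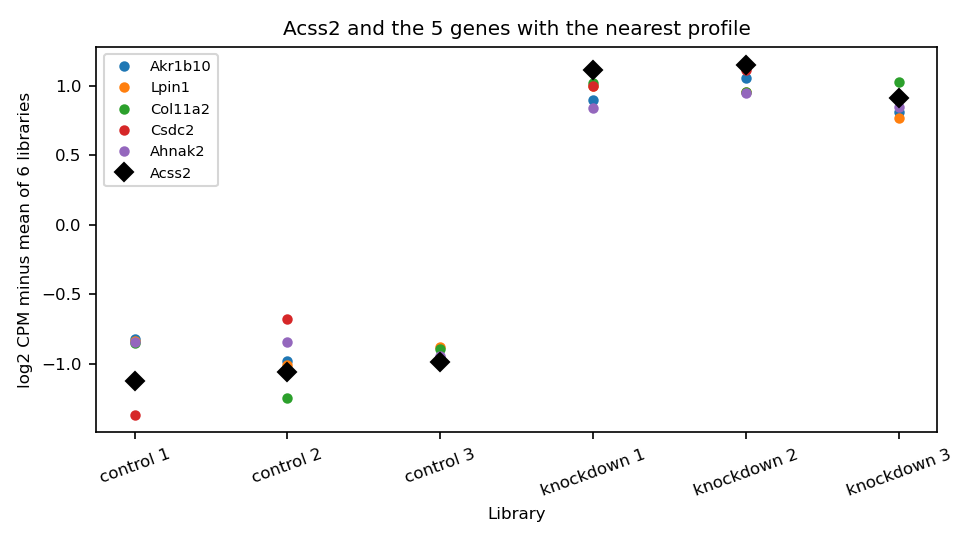
Log2 CPM minus the mean of the 6 libraries for Acss2 (black diamonds) and the 5 genes nearest to it (coloured points), one column per library. In all 6 genes the control libraries lie below 0 and the knockdown libraries above it, and Acss2 is among the lowest in controls and the highest in knockdown replicates 1 and 2.

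Genes around the members were followed in 8 lists. In the counts below, called means that the edgeR fit over all genes gave an adjusted p under 0.05, against the background of 61.7%, and all tested genes had a median log2 fold change of 0.00.

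The first list held genes that bring acetyl units to the members. Of 21 tested genes 9 rose and 5 fell (66.7% called, median 0.01), a share near the background. Aacs, which activates acetoacetate in the cytosol, rose from 82.0 ± 2.06 to 141.5 ± 10.9 CPM (SD, n = 3; log2 fold change 0.79, SE 0.0579). The monocarboxylate transporters, which also carry acetate, moved apart. Slc16a7 rose by 1.22 (SE 0.09), and Slc16a3, named after its values were seen, by 0.82 at a mean of 1.39 CPM. Slc16a1 fell from 320.0 ± 9.26 to 174.4 ± 3.20 CPM (log2 fold change -0.88, SE 0.0453). Pdk4, a kinase that switches off pyruvate dehydrogenase, rose by 0.78 and the citrate synthase gene Cs by 0.20. The Pdk4 relatives Pdk2 (0.61) and Pdk3 (0.40), named after their values were seen, were also called higher. So were Dlat and Dld (0.41 each), subunit genes of pyruvate dehydrogenase itself, named in the same way. The subunit genes Pdhb (0.07), Pdha1 (0.01) and Pdhx (-0.13) were not called. Acat2, which condenses acetyl-CoA towards sterols, was at 322.3 ± 8.15 and 323.4 ± 11.9 CPM (SD, n = 3). The citrate carrier Slc25a1, named here after its values were seen, was at -0.14 (SE 0.0601, edgeR adjusted p 0.0453) and was not stable. It did not pass without control replicate 1, control replicate 2, knockdown replicate 1 or knockdown replicate 3 (edgeR adjusted p 0.0629 to 0.270). Slc25a1 also did not pass with library totals (edgeR adjusted p 0.197) or in DESeq2's Wald test (adjusted p 0.0604), and it was at 0.04 with the length offset. The other genes that fell, also named after their values were seen, were the pyruvate dehydrogenase kinase Pdk1 (-0.50), the matching phosphatase Pdp2 (-0.40) and the ketone body thiolase Acat1 (-0.29).

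Fatty acid synthesis consumes NADPH, and of 16 tested genes for its supply 7 rose and 3 fell (62.5% called, median 0.18). The split was 9 and 2 when library totals replaced TMM, and 5 and 2 with the length offset. Pgd, a dehydrogenase of the pentose phosphate pathway that makes NADPH, rose from 441.3 ± 30.7 to 553.2 ± 17.6 CPM (SD, n = 3; log2 fold change 0.33, SE 0.0485). The malic enzyme gene Me1, chosen after its values were seen, rose by 0.39 (SE 0.054). The 3 genes that fell, named after their values were seen, were the mitochondrial NAD kinase Nadk2 (-0.58) and the folate enzymes Mthfd1 (-0.24) and Mthfd2 (-0.16). Their relatives, named in the same way, did not fall. The NAD kinase gene Nadk (0.48) and the folate enzymes Mthfd1l (0.39) and Aldh1l2 (0.23) were called higher, and Aldh1l1 (0.13) was not called. Mthfd2 did not pass without control replicate 1 or 3 or without knockdown replicate 1 or 3 (edgeR adjusted p 0.0601 to 0.231). It also did not pass with library totals (edgeR adjusted p 0.151), with the length offset (edgeR adjusted p 0.233) or in DESeq2's Wald test (adjusted p 0.0521).

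The carboxylases are inhibited by AMP-activated kinase and activated by partner proteins, and of 15 tested genes of that control 7 rose and 4 fell (73.3% called, median 0.18). Mid1ip1, whose product promotes polymerisation of acetyl-CoA carboxylase, fell from 204.4 ± 8.06 to 125.1 ± 6.40 CPM (SD, n = 3; log2 fold change -0.71, SE 0.0514). Sirt1, a deacetylase of acetyl-CoA synthetases among other proteins, fell by 0.78 on the log2 scale, and Sirt2 rose by 0.61. Strada, a partner of the upstream kinase, rose by 0.65, and Cab39, another partner, was at 0.10 (SE 0.048) without passing. Genes of the kinase itself, named after their values were seen, went both ways: Prkaa2 (0.21), Prkab1 (0.20) and Prkag1 (0.19) rose, and Prkaa1 (-0.30) and Prkag2 (-1.50, at a mean of 1.41 CPM in controls) fell. Prkaa2 did not pass without control replicate 1 (adjusted p 0.0554), control replicate 2 (0.0741) or knockdown replicate 1 (0.0580), in DESeq2's Wald test (0.0594), or with the length offset, where it was at 0.07 (adjusted p 0.401). Thrsp, a relative of Mid1ip1 chosen after its values were seen, was not tested for lack of counts.

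The factors known to drive these genes, and the proteins that control them, had log2 fold changes from -0.49 to 0.46. Of 19 tested genes of the SREBP, ChREBP and LXR list 8 rose and 6 fell (73.7% called, median 0.06), and with library totals the split was 8 and 3. Srebf2 rose from 206.3 ± 3.98 to 274.4 ± 16.2 CPM (SD, n = 3; log2 fold change 0.41, SE 0.0487). Srebf1, named after its values were seen because its product is the member of the pair tied to fatty acid synthesis, was at 89.0 ± 1.14 and 87.2 ± 4.78 CPM (SD, n = 3; log2 fold change -0.03, SE 0.0551, edgeR adjusted p 0.668), a sign that turned with library totals (0.02). Insig1, which retains SREBPs in the reticulum and is itself one of their known targets, fell from 752.1 ± 2.43 to 534.2 ± 31.0 CPM (log2 fold change -0.49, SE 0.0449). Mlxipl, the gene for ChREBP, was listed with too few counts to be tested.

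Most of the tested enzymes that elongate and desaturate fatty acids, the members aside, were called lower. The members Elovl6, Scd and Scd2, with log2 fold changes of 0.35, 0.56 and 0.08, were kept out of this list. Of 13 tested genes 2 rose and 9 fell (84.6% called, median -0.64), beside 30.9% lower among all tested genes. Fads1, a desaturase of polyunsaturated fatty acid synthesis, fell from 396.5 ± 12.0 to 156.4 ± 7.07 CPM (SD, n = 3; log2 fold change -1.34, SE 0.0477, edgeR adjusted p 3.76e-16). Fads2, the desaturase of an earlier step in that route, rose from 378.5 ± 8.97 to 517.6 ± 22.0 CPM (log2 fold change 0.45, SE 0.0444). The other enzymes of the elongation cycle that pass the naming rule fell: the dehydratase Hacd1 by 1.21, the ketoacyl reductase Hsd17b12 by 0.78 and the enoyl reductase Tecr by 0.44 on the log2 scale. Degs1, the desaturase of ceramide synthesis, went from 253.1 ± 5.55 to 145.8 ± 6.88 CPM (SD, n = 3; log2 fold change -0.80, SE 0.0484). Elovl5 and Elovl1, chosen after their values were seen as relatives of Elovl6, were at -0.67 (SE 0.0539) and -0.51 (SE 0.0571). Hacd3, a relative of Hacd1 chosen in the same way, rose by 0.63 (SE 0.0605). Elovl6 thus lay higher in the knockdown libraries while both of these relatives fell, and 2 genes higher and 9 lower were called under each scaling tried.

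**Figure D5:**
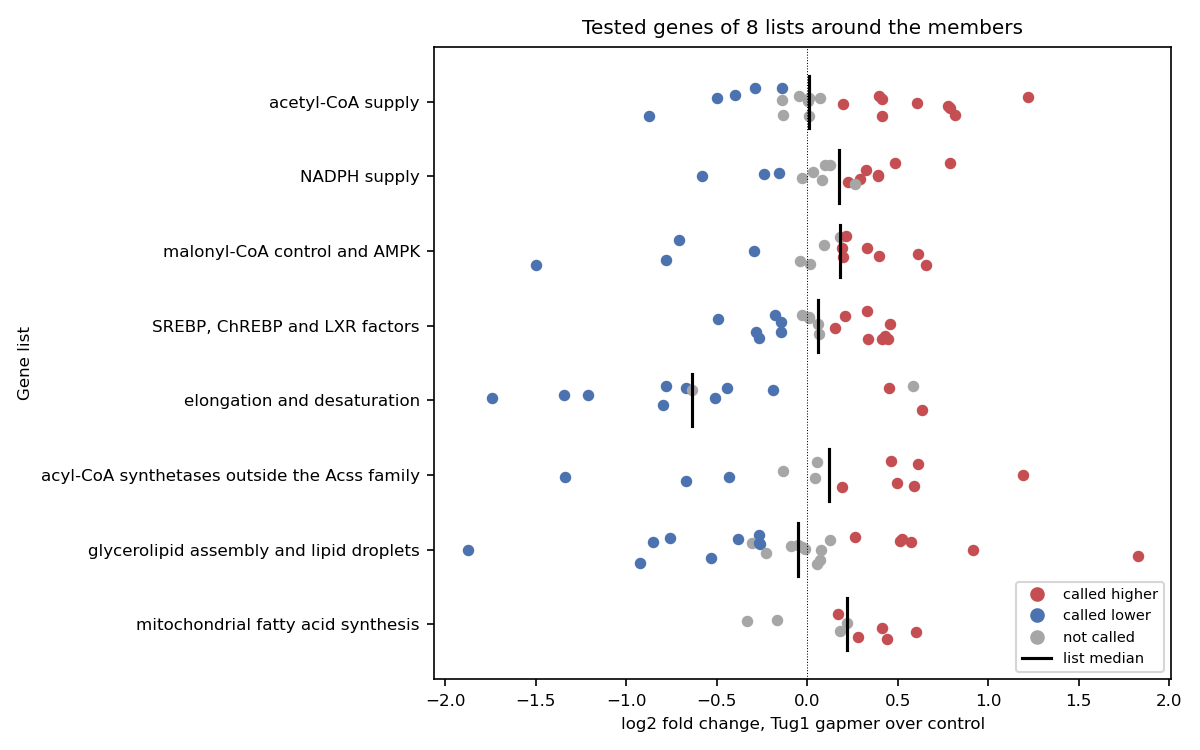
Log2 fold change of each tested gene in 8 lists of genes around the members (red called higher, blue called lower, grey not called in edgeR), with a black line at each list's median. The elongation and desaturation list has its median at -0.64, and the medians of the other lists lie from -0.05 to 0.22.

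Acyl-CoA synthetases outside the Acss family activate longer chains. Of 12 tested genes 6 rose and 3 fell (75% called, median 0.12). Acsl3, a long-chain synthetase of lipid droplets, rose from 309.4 ± 14.9 to 466.4 ± 1.10 CPM (SD, n = 3; log2 fold change 0.59, SE 0.0447). Acsl4, which prefers arachidonate, rose by 0.50, and Acsf3, which activates malonate in mitochondria, by 0.61. Slc27a1, a fatty acid transport protein with synthetase activity, fell from 80.3 ± 9.79 to 50.6 ± 5.15 CPM (log2 fold change -0.67, SE 0.0784). The long-chain synthetase Acsl6 (-1.34, at under 1 CPM in both groups) and Aasdh (-0.43), named after their values were seen, were the other genes that fell. Acsl6 did not pass in DESeq2's Wald test (adjusted p 0.0506). None of these came near the difference of Acss2.

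Genes that place fatty acids into glycerolipids and droplets moved both ways. Of 25 tested genes 6 rose and 9 fell (60% called, median -0.05). Lpin1 rose from 15.5 ± 0.972 to 54.9 ± 4.56 CPM (SD, n = 3; log2 fold change 1.83, SE 0.0822, edgeR adjusted p 2.00e-14). Agpat2, an acyltransferase of the step before it, fell from 30.6 ± 4.07 to 8.33 ± 0.275 CPM (log2 fold change -1.87, SE 0.108, edgeR adjusted p 1.24e-12). Gpat3, of the first step, fell by 0.92 on the log2 scale, and the monoglyceride lipase gene Mgll rose by 0.92. The other tested relatives of Gpat3 and Agpat2, named after their values were seen, differed less. Gpat4 rose by 0.57, Gpam and Agpat1 were at -0.26, and Agpat3, Agpat4 and Agpat5 were not called. The droplet coat gene Plin2 was at -0.26 and the lipase activator Abhd5 at -0.53, both called lower.

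The separate mitochondrial pathway of fatty acid synthesis, which makes the precursor of lipoic acid, had 5 of 9 tested genes higher and 0 lower (55.6% called, median 0.22). Cbr4, a subunit of its ketoacyl reductase, rose by 0.60 (SE 0.115), the malonyl transferase Mcat by 0.28 and the acyl carrier gene Ndufab1 by 0.17. The others that rose, named after their values were seen, were the enoyl reductase Mecr (0.44) and the lipoate synthase Lias (0.41). Ndufab1 did not pass without control replicate 1 (edgeR adjusted p 0.0515), and Mecr did not without control replicate 3, knockdown replicate 2 or knockdown replicate 3 (edgeR adjusted p 0.0714 to 0.123). Mecr also did not pass in DESeq2's Wald test (adjusted p 0.0777).

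Cell types in which lipogenesis is most active were followed by their markers. Of 12 adipocyte markers, Retn, Cidec, Pck1 and Aqp7 had at most 3 counts in every library, and Adipoq was at 0.463 ± 0.205 and 0.296 ± 0.128 CPM (SD, n = 3). Their summed level was 26.1 to 30.6 CPM in controls and 22.1 to 22.9 CPM in knockdown libraries. Of 9 hepatocyte markers, 6 had at most 3 counts in every library, Alb among them, and the sum ran from 0.920 to 1.00 CPM in controls and from 1.96 to 2.52 CPM after knockdown. Of 11 tested skeletal muscle markers 9 were called higher, beside 30.8% of all tested genes, and 1, Myod1, lower (log2 fold change -0.32). The sum of all 13 was 785.3 to 790.2 CPM in controls and 1178 to 1216 CPM in knockdown libraries. Only Myf5 of the 13 was at or under 3 counts throughout. The cardiomyocyte markers summed to 740.0 to 781.6 CPM and 720.6 to 791.3 CPM. By far the largest sum was that of 9 fibroblast markers, at 43814 to 45162 CPM in controls and 41192 to 43997 CPM in knockdown libraries. Of 7 tested fibroblast markers 2 were called higher and 3 lower, beside 30.8% and 30.9% of all tested genes. The part of the skeletal muscle marker difference in the member values was not tested.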

How the data were processed

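Per the labels' protocols, total RNA (500 ng per library, integrity number 9 or higher) was poly-A selected and made into stranded libraries. FastQC 0.11.7, fastp 0.14.1 and STAR 2.5 are named in the submitters' processing notes. The counting tool, strand setting, annotation and genome build are not given in the sources used here. The values deposited by the authors are raw counts for each gene, whole numbers without scaling, with 0 unnamed entries.

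The edgeR package (4.0.16, in R 4.3.3) was used on these counts: expression filter (minimum count 10, minimum total 15), TMM scaling and the quasi-likelihood test (two-sided) on all 6 libraries without a block, with Benjamini-Hochberg adjustment over 14216 tested genes. Scripts were tested on simulated counts, where 74.2% of genes changed by 0.5 and 91.7% of those changed by 1 (log2) were recovered. Among 14035 genes there were 12 false calls. Only 97 and 96 genes were changed there, unlike the 61.7% called in the data, so these rates do not carry over to it. Members and lists were chosen with earlier results of these data known. Beside the members, each list gave up to 4 called genes that differed by 0.58 or more (log2) at 5 CPM or more. Its 2 most abundant tested genes were also named, together with Tug1 and the 5 genes most like Acss2. The nearest genes beside Acss2 were named too, up to 3 on each side, where the small nucleolar RNA inside its span filled a place. Genes named outside this rule are marked. One gene that met the rule is counted but not reported here by name. No transcript lengths were used here, so levels are not compared between genes. Alternatives used limma 3.58.1 and DESeq2 1.42.0. Counting limits (3 counts, 0.221 to 0.231 CPM) cover counting error only.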

Additional observations from a re-analysis of the deposited data

How the results depend on the processing

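All alternatives were planned, and 14 could be fitted: DESeq2 size factors, library totals, DESeq2's Wald test, limma-voom, all genes with a count, genes averaging 1 CPM or more, the replicate number as a block, a length offset (lowess, span 0.3, genes with a genomic span only) and each library left out. The comparison of levels per coding length was not run, as no lengths were available to it. Acss2 ranged from 2.05 with the length offset to 2.19 without knockdown replicate 3, Acly from 0.81 to 0.96, Acaca from 0.35 to 0.75, Scd from 0.49 to 0.62, Elovl6 from 0.15 to 0.42, Scd2 from 0.06 to 0.14, Acacb from 0.10 to 0.44 and Fasn from -0.04 to 0.12. Leaving out a library gave 2.07 to 2.19 for Acss2. The count of changed genes ran from 7353 at an adjusted p under 0.01 to 8987 with no filter. The mitochondrial fatty acid synthesis list fell from 5 to 3 changed genes at an adjusted p under 0.01, which is the stricter threshold itself. Among 67 of the other named genes, 57 kept direction and call in every setting that tested them. Acat2, at 0.00 and not called, lay from -0.0182 to 0.0348 over the fits that each omitted a library and was -0.0058 with no filter. Srebf1, also not called, was 0.0237 with library totals and lay from -0.0725 to 0.0030 over the same fits. Slc25a1, called lower, was 0.0380 with the length offset. Cab39 (-0.0252) and Trpc4ap (-0.0368), neither called, were negative with the length offset, and both passed as higher with library totals (0.15 and 0.16). The cause was not tested.

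Pairing of libraries by number was not seen in a single check: deviations of same-numbered libraries from their group means correlated at -0.0052, 0.0288 and 0.0258 across genes. All tested genes weighed alike in it, those with low counts included, so it cannot exclude pairing. With the replicate block 8848 genes were called and Acss2 was at 2.12. Scd2, not called in the reported fit, was called with that block, with library totals, with limma-voom, with the length offset and without knockdown replicate 3, and Elovl6 lost its call with the length offset. Control replicate 1 correlated best with knockdown replicate 2, and the other controls with their own number. Depth limits Acss1, Acss3 and Acacb.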

Other observations

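Regulators and markers of fat cells, described above only as a sum, moved apart in these libraries. Pparg, the nuclear receptor of adipocyte differentiation, rose from 2.03 ± 0.527 to 3.67 ± 0.738 CPM (SD, n = 3; log2 fold change 0.85, SE 0.24, edgeR adjusted p 0.00377). Cebpa, its partner factor, fell from 16.3 ± 1.63 to 10.8 ± 0.753 CPM (log2 fold change -0.60, SE 0.109, edgeR adjusted p 5.17e-05). Both genes were chosen after their values were seen, and Pparg is near the low end of the counts.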
